A study of Mus musculus with 9 samples.

Results

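The passenger strands of the let-7 microRNAs (miRNAs) were described in the mouse hippocampus after aspiration of PM2.5, the fine fraction of airborne particles. The members were 4 entries of the array, mmu-let-7a-1-3p, mmu-let-7c-1-3p, mmu-let-7d-3p and mmu-let-7e-3p (written below without the species prefix), out of 11 let-7 and miR-98 3p entries and 1247 mouse miRNAs in all. They were the 3p entries of the family that were detected on every array, and let-7a-1-3p and let-7d-3p were picked because they lay lower at 5 mg/kg bw, so that their levels and strand ratios at that dose against control are given as a description without a test. Male C57BL/6 mice, about 8 weeks old, received by oropharyngeal aspiration every second day over 4 weeks, under isoflurane, either saline (control) or PM2.5 at 1 mg/kg bw or 5 mg/kg bw. The hippocampus was taken 18 h after the last aspiration. Each group held 3 Agilent mouse miRNA arrays, and no genetic change or transgene was named. A figure legend of the study gives 3 individual mice each for control and 5 mg/kg bw and does not cover the 1 mg/kg bw arrays. The design text of the series speaks of 3 independent experiments with 3 replicates. What a replicate is therefore remains unsettled, and the p-values measure the spread between these arrays, which may be partly technical. The RNA came from whole hippocampal tissue, in which fewer cells of a type and less RNA per cell cannot be told apart.

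let-7 miRNAs are processed from hairpin precursors. The enzyme Dicer releases a duplex, of which the 5p strand is usually kept by Argonaute proteins as the guide strand, while the 3p strand, the passenger strand, is usually discarded. Guide strands of let-7 are abundant in the adult brain and repress growth and developmental timing genes through a shared seed, the short stretch near the 5' end that pairs with messenger RNAs. The ratio of passenger to guide on the same array therefore follows what the 2 strands of a hairpin do relative to each other, and a single scaling factor per array cancels in it.

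The mature sequences show how the members differ and which other entries could share their signal. All 4 members were matched by name in the RefSeq table (GRCm38.p6). The sequences are written 5' to 3' with the seed (bases 2 to 8) in capitals, first the 4 members, then 2 relatives, not among the members, that share the seed of let-7a-1-3p, then the guide strands of the 2 members that were picked.
let-7a-1-3p: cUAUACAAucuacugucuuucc
let-7d-3p: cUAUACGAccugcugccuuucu
let-7c-1-3p: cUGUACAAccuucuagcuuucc
let-7e-3p: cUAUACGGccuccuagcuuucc
let-7f-1-3p: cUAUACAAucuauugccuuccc
let-7b-3p: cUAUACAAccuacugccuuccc
let-7a-5p: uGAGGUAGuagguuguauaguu
let-7d-5p: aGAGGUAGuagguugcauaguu
The guides share 1 seed, GAGGUAG, whereas the 4 members have 4 different seeds. The seed of let-7a-1-3p is shared with let-7c-2-3p, let-7f-1-3p, let-7b-3p and miR-98-3p. let-7c-2-3p is identical to let-7a-1-3p over all 22 bases, so the array entry measures both. Counted from the 5' end, let-7f-2-3p differs from let-7a-1-3p by a single substitution over 21 positions, A8G, while let-7f-1-3p differs by C13U, U16C and U20C. let-7d-3p differs from let-7a-1-3p at 5 positions.

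The 2 members that were picked come from the same cluster. let-7a-1-3p lies at chr13:48538188-48538209 and let-7d-3p at chr13:48536024-48536045, both on the minus strand, and with let-7f-1 they occupy 2237 bases. The identical let-7c-2-3p lies at chr15:85706664-85706685 on the plus strand, within the long noncoding RNA gene Lncppara. let-7c-1-3p lies at chr16:77599717-77599738, on the plus strand, with no other gene of the table over it. let-7e-3p lies at chr17:17830411-17830432 on the plus strand, within the protein-coding gene Spaca6. The guide let-7a-5p is also made from let-7a-2 on another chromosome and let-7c-5p from both let-7c-1 and let-7c-2, so those strand ratios set the product of some hairpins against that of others as well.

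Facts of the whole series were as follows. Between 410 and 436 miRNAs were detected per array and no spot was saturated. The test covered the 424 miRNAs with a detection call on each of the 3 arrays in 1 group or more. Signals are given in scaled units, that is the background-subtracted signal divided by the array's 75th percentile (taken over 395 miRNAs that every array detected) and multiplied by the median of those percentiles, 553 units. Levels are log2 of the scaled signal, and differences between groups come from limma fitted over all 424 miRNAs and 9 arrays. On slide 1, row 1 held all control arrays with replicate 1 of the 1 mg/kg bw group, and row 2 held replicates 2 and 3 of that group with replicates 1 and 2 of the 5 mg/kg bw group. Replicate 3 of the latter lay alone on slide 2. No control array lay in row 2 or on slide 2, so dose and array position cannot be told apart at 5 mg/kg bw. All 7 neuronal and all 3 oligodendrocyte marker miRNAs were detected on all 9 arrays, the liver marker miR-122-5p on none, but 2 of 3 skeletal muscle markers on all 9. The summed level of the 4 choroid plexus markers, of which 2 were detected on all 9 arrays, was 1705 to 2711 scaled units in control, 2984 to 4869 at 1 mg/kg bw and 1582 to 3098 at 5 mg/kg bw. That of the blood markers, 7 of 8 being on the array and 4 of them detected on all 9 arrays, was 2047 to 2494, 2107 to 2349 and 2539 to 2734 scaled units, which is without overlap between control and 5 mg/kg bw, while miR-144-5p and miR-142-5p were detected on none. The part of these tissues in the results below was not tested. Precision is limited by the number of arrays.

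Of the 11 let-7 and miR-98 3p entries, 4 were detected on all 9 arrays, 3 on some and 4 on none. The 3 intermediate entries were let-7f-1-3p on 4 arrays, let-7i-3p on 2 and let-7b-3p on 1. let-7a-2-3p, let-7f-2-3p, let-7g-3p and miR-98-3p were detected on 0 of 9. By contrast, all 9 guide strands of the family (let-7a, b, c, d, e, f, g, i and miR-98) were detected on all 9 arrays. The scanner software calls a miRNA detected where at least 1 of its probes has a total signal over 3 times its error, a rule that returned 100% of the 11223 calls in the files.

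let-7a-1-3p had a signal of 32.7, 26.9 and 32.4 scaled units in control replicates 1 to 3. At 1 mg/kg bw it had 27.0, 25.04 and 26.7, and at 5 mg/kg bw 21.9, 26.1 and 24.5 scaled units. The groups at 5 mg/kg bw and control did not overlap, by a gap between 26.1 and 26.9, whereas 1 mg/kg bw replicate 1 stood just above the lowest control array. The means ± SD were 30.6 ± 3.26 scaled units in control, 26.2 ± 1.04 at the lower dose and 24.2 ± 2.11 at 5 mg/kg bw (n = 3 each).

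let-7d-3p had 28.8, 22.6 and 25.8 scaled units in control, 18.9, 20.6 and 27.1 at 1 mg/kg bw, and 21.9, 19.9 and 18.9 at 5 mg/kg bw. The 5 mg/kg bw arrays again lay below all control arrays, by a gap between 21.9 and 22.6, while the 1 mg/kg bw arrays spanned both, replicate 3 being the second highest of all 9. The means ± SD were 25.7 ± 3.08, 22.2 ± 4.36 and 20.3 ± 1.51 scaled units (n = 3 each).

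The other 2 members, which were not picked for a difference, varied less in the signal of all probes summed. let-7c-1-3p had 19.7, 19.8 and 22.9 scaled units in control, 20.9, 20.9 and 22.05 at 1 mg/kg bw, and 18.9, 19.3 and 20.1 at 5 mg/kg bw. let-7e-3p had 32.9, 34.9 and 33.0 scaled units in control, 36.1, 30.9 and 31.2 at 1 mg/kg bw, and 32.7, 34.1 and 31.5 at 5 mg/kg bw. The groups of both overlapped at both doses.

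**Figure D1:**
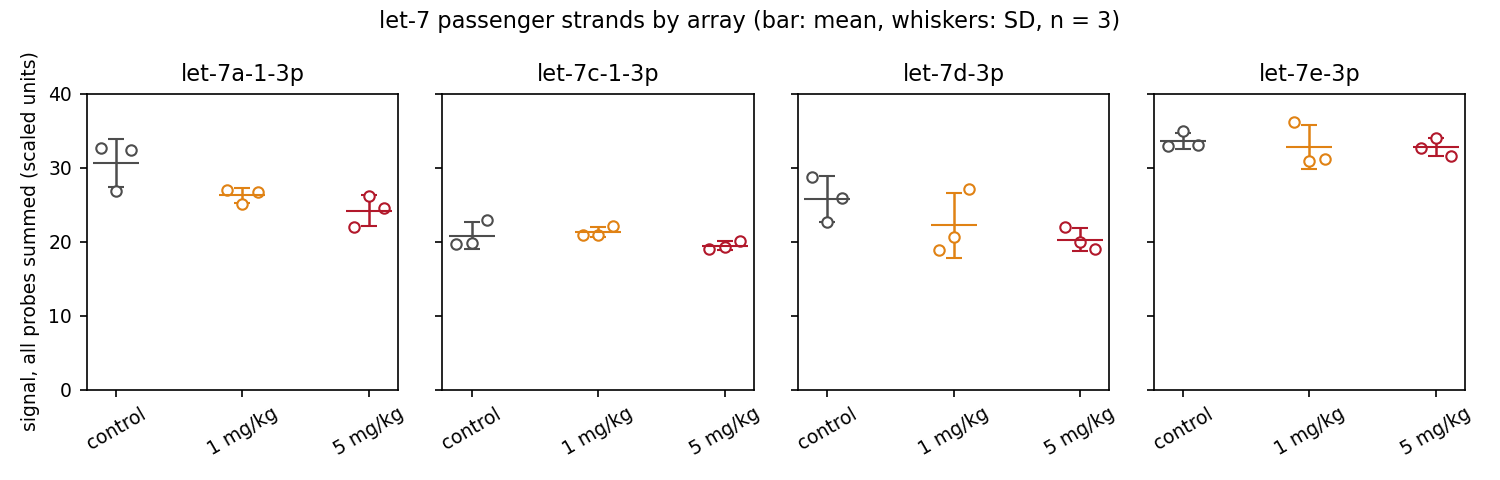
Signal of each passenger strand, all probes summed, in scaled units on a linear axis from 0, for the 3 arrays of each group (points) with the mean and SD. For let-7a-1-3p and let-7d-3p the 5 mg/kg bw points lie below the control points, at 21.9 to 26.1 against 26.9 to 32.7 and at 18.9 to 21.9 against 22.6 to 28.8, and for let-7c-1-3p and let-7e-3p the groups overlap.

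At 5 mg/kg bw the log2 level differed from control by -0.34 (SE 0.10) for let-7a-1-3p, by -0.34 (SE 0.15) for let-7d-3p, by -0.095 (SE 0.078) for let-7c-1-3p and by -0.036 (SE 0.079) for let-7e-3p. The mean lay lower for 4 of 4 members and for 51.2% of all tested miRNAs, although the small differences of let-7c-1-3p and let-7e-3p turned positive without scaling (0.019 and 0.078) and with the negative control mean subtracted (0.094 and 0.070). Over the 4 members the median difference was -0.22 against -0.0035 over all 424 tested miRNAs. Of all tested miRNAs, 9.43% lay lower at 5 mg/kg bw without overlap, as let-7a-1-3p and let-7d-3p did. That contrast chose let-7a-1-3p and let-7d-3p. Nothing is therefore read from their count, from the lower means of 4 of 4 members or from the median over the members. No miRNA of the 424 passed an adjusted p of 0.05 at this dose with limma and Benjamini-Hochberg adjustment, while 9.43% were at an unadjusted p under 0.05. Between the doses, 5 mg/kg bw lay below 1 mg/kg bw by 0.12 on the log2 scale for both let-7a-1-3p (difference -0.12, SE 0.10) and let-7d-3p (difference -0.12, SE 0.15), differences about the size of their errors.

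At 1 mg/kg bw, a dose that did not enter the choice although its control arrays did, none of the 4 members passed the test. The log2 level differed from control by -0.22 for let-7a-1-3p (SE 0.10, limma adjusted p = 0.54), by -0.22 for let-7d-3p (SE 0.15, limma adjusted p = 0.69), by 0.037 for let-7c-1-3p (SE 0.078, limma adjusted p = 0.91) and by -0.039 for let-7e-3p (SE 0.079, limma adjusted p = 0.91). The background was 0.236% of the 424 miRNAs called at this dose, and 0 of 4 members were also at an unadjusted p under 0.05, where 7.78% of all tested miRNAs were. The 95% intervals ran from -0.45 to 0.0100 for let-7a-1-3p and from -0.56 to 0.11 for let-7d-3p. The 1 mg/kg bw arrays of each member overlapped with control, whereas 12.3% of all tested miRNAs did not overlap in either direction and 7.55% lay lower without overlap. Two-sided exact permutation tests of the level, which cannot go below p = 0.1 with 3 arrays against 3, gave p = 0.2 for let-7a-1-3p, 0.3 for let-7d-3p and 0.6 for the other two. The mean lay below control for 3 of 4 members and for 60.1% of all tested miRNAs, with medians of -0.13 and -0.032.

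Each member was measured by 4 probes of different length, with 10 spots each, and the probes did not move alike. A probe is complementary to the 3' end of the miRNA, and each longer probe adds 1 base toward the miRNA's 5' end. The probes of let-7a-1-3p reach from base 4 to base 1 of the miRNA and those of let-7d-3p from base 8 to base 5, so the longest probe of let-7a-1-3p covers the whole miRNA and that of let-7d-3p leaves out the first 4 bases. The longest probe of both picked members is printed 5' to 3' with the base it adds to the next shorter one in capitals, because the results below differ between these probes and the shorter ones.
longest probe of let-7a-1-3p: ggaaagacagtagattgtataG
longest probe of let-7d-3p: agaaaggcagcaggtcgT

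Most of the signal came from the longest probe. In control it carried 67.3% of the summed signal of let-7a-1-3p, 54.3% of that of let-7d-3p, 56.6% of that of let-7c-1-3p and 64.6% of that of let-7e-3p. It was the one probe of let-7a-1-3p with a total signal over 3 times its error on any array, at 5.49 to 6.46 times the error. For let-7d-3p the longest probe stood at 4.13 to 5.80 times its error, and the next shorter one passed 3 on 1 array, 1 mg/kg bw replicate 3. For let-7c-1-3p the longest probe stood at 3.47 to 4.42 times its error, and for let-7e-3p the longest 2 probes passed on all 9 arrays.

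The difference at 5 mg/kg bw came mainly from the shorter probes. For let-7d-3p the longest probe (18 bases) had means ± SD of 14.0 ± 1.45 scaled units in control, 14.4 ± 2.31 at the lower dose and 12.99 ± 0.803 at 5 mg/kg bw, with overlapping groups. The other 3 probes of let-7d-3p together had 13.5, 10.2 and 11.6 scaled units in control, 6.12, 7.27 and 10.1 at 1 mg/kg bw, and 8.20, 6.80 and 6.82 at 5 mg/kg bw. Control did not overlap there with either dose, though at 1 mg/kg bw only by a gap between 10.126 and 10.195. Of the mean difference of -5.48 scaled units between 5 mg/kg bw and control, the longest probe gave 17.9% and the shorter ones 82.1%. For let-7a-1-3p the longest probe (22 bases) had 22.4, 17.96 and 21.6 scaled units in control, 21.0, 20.2 and 19.3 at 1 mg/kg bw, and 17.2, 18.4 and 19.98 at 5 mg/kg bw, which overlapped. Its 3 shorter probes together had 10.3, 8.93 and 10.8 scaled units in control, 5.94, 4.87 and 7.45 at 1 mg/kg bw, and 4.75, 7.70 and 4.503 at 5 mg/kg bw, without overlap between control and either dose. The shorter probes gave 67.5% of the mean difference of -6.48 scaled units at 5 mg/kg bw, with 32.7% of the control signal. How often the shorter probes of all tested miRNAs separate in this way was not computed, and the 5 mg/kg bw contrast chose the members. Nothing is therefore read from these separations or from those of single probes below.

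On the longest probe alone the log2 difference at 5 mg/kg bw was -0.15 (SE 0.10) for let-7a-1-3p and -0.10 (SE 0.13) for let-7d-3p. At 1 mg/kg bw it was -0.028 (SE 0.10) and 0.034 (SE 0.13). For let-7c-1-3p the order of the probes was the other way, since the longest probe lay lower by 1.43 scaled units at 5 mg/kg bw (difference -1.43) and the shorter ones together differed by 0.064. The longest probe of let-7c-1-3p alone gave -0.18 (SE 0.12) and that of let-7e-3p -0.044 (SE 0.067).

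The shorter probes ranged from clearly above to below the level of spots that carry no miRNA sequence. The mean of the negative control spots was 2.64 to 2.93 scaled units over the control arrays, 2.36 to 2.86 at 1 mg/kg bw and 1.96 to 2.57 at 5 mg/kg bw. In scaled units it too was lower at 5 mg/kg bw than in control without overlap. Before scaling the mean was 2.41 to 2.94 units in control and 2.18 to 2.57 units at 5 mg/kg bw, which overlap. The 17-base probe of let-7d-3p stood above that mean on all 9 arrays, at 6.71 to 7.56 scaled units in control, 5.88 to 8.03 at 1 mg/kg bw and 4.61 to 6.62 at 5 mg/kg bw, so that control and 5 mg/kg bw did not overlap, and it gave 28.8% of the difference of let-7d-3p. The 21-base probe of let-7a-1-3p, which gave 31.5% of the difference of that member, had means of 4.88 scaled units in control and 2.84 at 5 mg/kg bw and lay below the negative control mean on 1 of 9 arrays. The 16-base probe of let-7e-3p, at 11.6 scaled units in control, passed 3 times its error on all 9 arrays. The 19-base probe of let-7a-1-3p and the 15-base probe of let-7d-3p were below that mean on 9 of 9 arrays, and the 20-base and 16-base probes on 6 and 7 of 9. Probes of the 795 miRNAs detected on no array had a median of -0.97 to -0.48 scaled units in control, -0.79 to -0.61 at 1 mg/kg bw and -0.95 to -0.71 at 5 mg/kg bw, with a 95th percentile between 3.13 and 3.66, and these groups overlapped. With the mean of the negative control spots subtracted from each probe, the log2 differences at 5 mg/kg bw were -0.37 (SE 0.16) for let-7a-1-3p and -0.37 (SE 0.32) for let-7d-3p. Without it they were -0.34 (SE 0.10) and -0.34 (SE 0.15). The subtraction also lowers the signal over which the log2 difference is taken, so the sizes cannot be compared directly. The part of the lower negative control level in the differences was not tested. The error of a single probe over its spots was 0.33 to 1.54 units for let-7a-1-3p and 0.29 to 1.00 units for let-7d-3p.

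**Figure D2:**
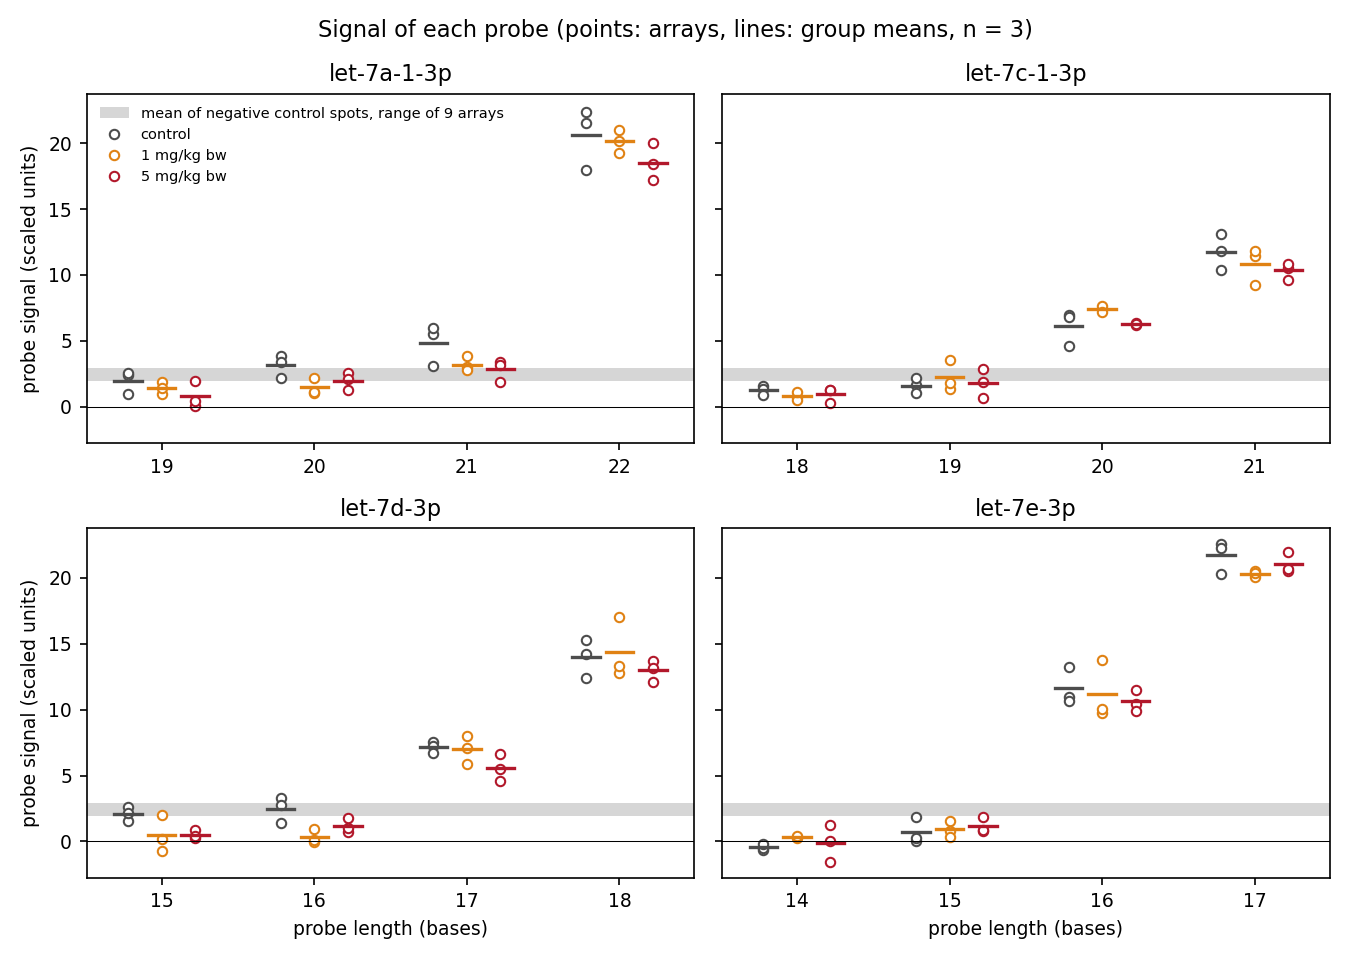
Signal of each probe of the 4 members in scaled units against probe length in bases, for each array (points) with group means (lines, n = 3), and the range of the mean of the negative control spots over the 9 arrays (grey band, 1.96 to 2.93). The longest probe stands clear of the band for each member, with overlapping groups, and on the 15-base probe of let-7d-3p the control points (1.55 to 2.63) lie above those at 5 mg/kg bw (0.234 to 0.869). How often probes of all tested miRNAs separate in this way was not computed.

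Strand ratios, log2 of passenger minus log2 of guide on the same array, are given relative to the mean of the control arrays, since probes for different sequences cannot be compared in level. For let-7a-1-3p over let-7a-5p the control arrays stood at -0.00081, -0.14 and 0.14, the 1 mg/kg bw arrays at 0.018, -0.098 and -0.14, and the 5 mg/kg bw arrays at -0.22, -0.095 and -0.34. For let-7d-3p over let-7d-5p they stood at 0.056, -0.12 and 0.060, at -0.27, -0.18 and 0.045, and at -0.067, -0.27 and -0.49. In both, the 5 mg/kg bw mean was lowest but the groups overlapped, whereas the levels of control and 5 mg/kg bw had not.

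The strand ratio at 5 mg/kg bw differed from control by -0.22 (SE 0.092) for let-7a-1-3p and by -0.27 (SE 0.12) for let-7d-3p. Without 5 mg/kg bw replicate 3, the array on slide 2, the value of let-7d-3p was -0.17. For let-7c-1-3p the ratio differed by 0.11 (SE 0.15) and for let-7e-3p by 0.033 (SE 0.082), so 2 of 4 members lay lower and 2 higher. Of the 87 arm pairs with both strands tested, 60.9% lay lower, and the median was -0.092 over the members against -0.043 over those pairs. The 2 lower members were chosen on their level in this contrast, so nothing is read from that count or median. Of the pairs, 19.5% lay lower at 5 mg/kg bw without overlap, and 0 of the 4 members did. On the longest probe alone the ratio of let-7a-1-3p differed by -0.029 (SE 0.091) and that of let-7d-3p by -0.036 (SE 0.11).

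At 1 mg/kg bw none of the 4 strand ratios passed the limma test over the 87 pairs, and 0% of all pairs did. The differences were -0.074 for let-7a-1-3p (SE 0.092, limma adjusted p = 0.77), -0.13 for let-7d-3p (SE 0.12, limma adjusted p = 0.69), 0.23 for let-7c-1-3p (SE 0.15, limma adjusted p = 0.65) and 0.079 for let-7e-3p (SE 0.082, limma adjusted p = 0.74). Of all pairs 10.3% were at an unadjusted p under 0.05, and of the members 0 of 4. The mean lay below control for 2 of 4 members and 63.2% of the pairs, and 14.9% of the pairs, but none of the members, had no overlap with control in either direction. The exact permutation tests, two-sided, gave p = 0.6, 0.2, 0.2 and 0.5 in that order. For let-7c-1-3p over let-7c-5p the ratio relative to control was -0.25, 0.0045 and 0.24 in control and 0.27, 0.28 and 0.13 at 1 mg/kg bw, which overlap. The interval of the difference ran from -0.11 to 0.56, which includes 0.

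**Figure D3:**
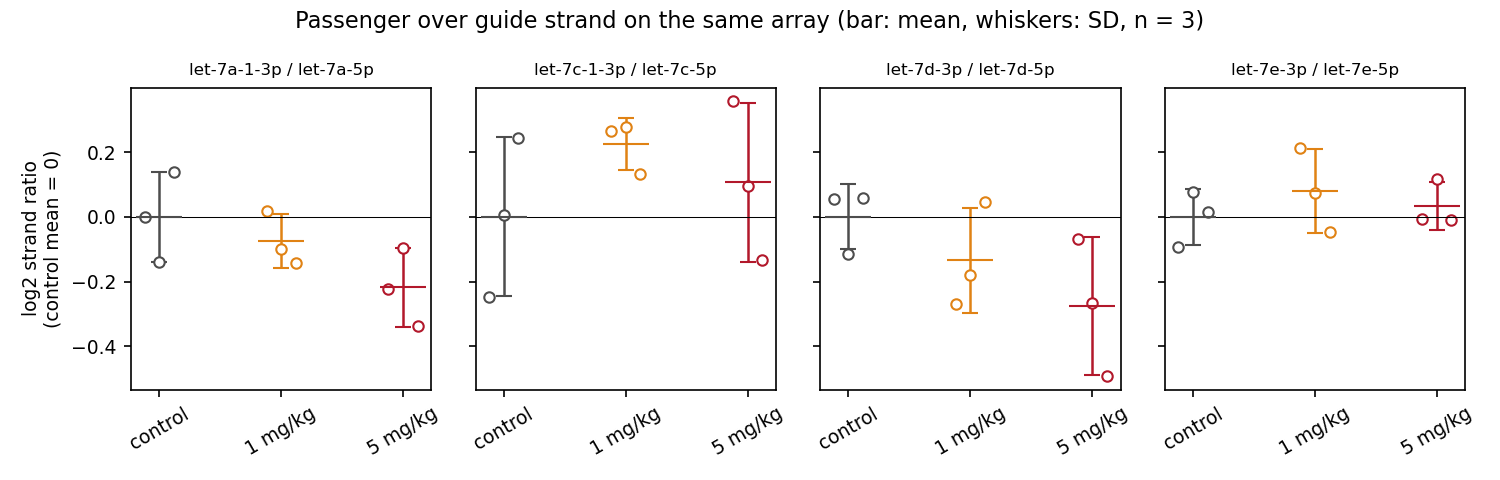
Log2 ratio of passenger to guide strand on the same array, relative to the control mean (line at 0), for the 3 arrays of each group with mean and SD. At 5 mg/kg bw the mean lies at -0.22 for let-7a-1-3p and -0.27 for let-7d-3p with points that reach into the control range, and at 0.11 and 0.033 for let-7c-1-3p and let-7e-3p.

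The guide strands, which the choice did not use, did not pass the test at either dose. Their signals were 27898 ± 1705 scaled units in control, 25228 ± 1453 at the lower dose and 25669 ± 2436 at 5 mg/kg bw for let-7a-5p, and 10993 ± 754, 10338 ± 818 and 10505 ± 808 for let-7d-5p (mean ± SD, n = 3). The log2 difference at 5 mg/kg bw was -0.12 for let-7a-5p (SE 0.090, limma adjusted p = 0.70), -0.066 for let-7d-5p (SE 0.091, limma adjusted p = 0.82), -0.20 for let-7c-5p (SE 0.15, limma adjusted p = 0.70) and -0.069 for let-7e-5p (SE 0.065, limma adjusted p = 0.76). All 9 guide strands of the family had a mean below control at both doses, with differences of -0.20 to -0.069 at the lower dose and of -0.25 to -0.023 at the higher, with medians of -0.12 and -0.095 against -0.032 and -0.0035 over all tested miRNAs. The guides are near-identical sequences read on the same arrays and share the control arrays between doses, so these are not 9 separate observations. None of the 9 was called by limma at an adjusted p under 0.05 or at an unadjusted p under 0.05. Of all tested miRNAs, 7.78% at the lower dose and 9.43% at the higher had such an unadjusted p. Without moderation of the variances 2 guides had an unadjusted p under 0.05 at the lower dose and 1 at the higher, and 0 after adjustment. The share of all tested miRNAs without moderation was not computed, so nothing is read from these counts. The largest shift among the guides, that of let-7b-5p at 5 mg/kg bw, was -0.25 (SE 0.17).

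**Figure D4:**
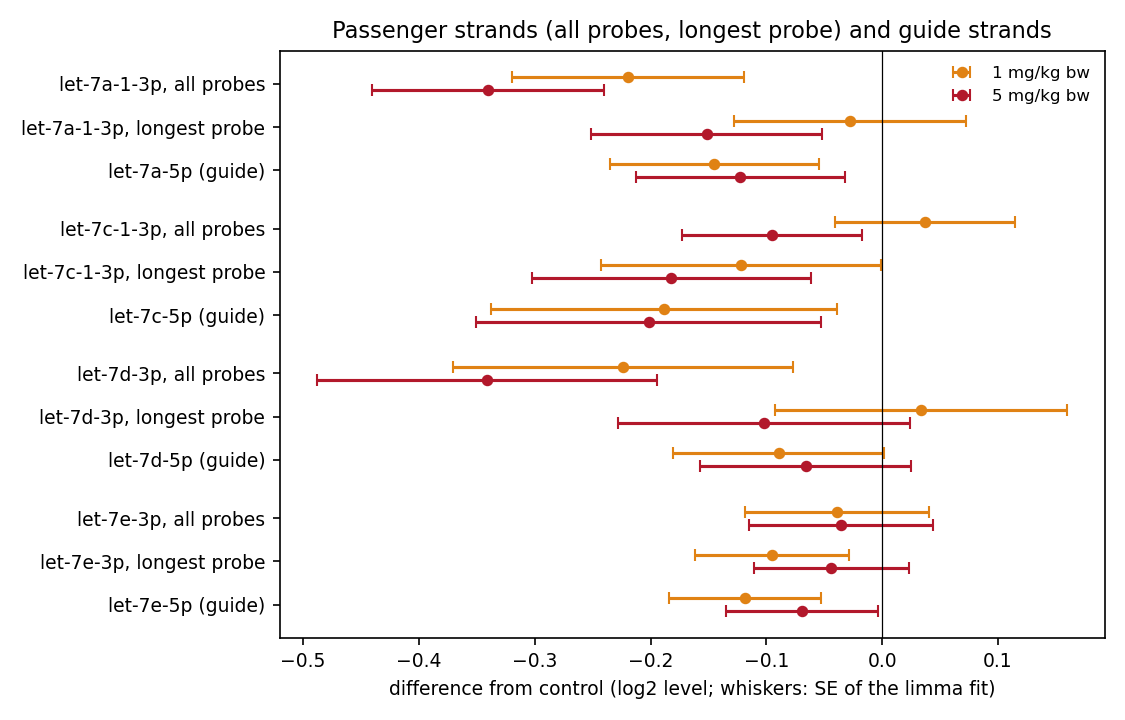
Difference from control in log2 level at both doses for each passenger strand with all probes summed, for its longest probe alone and for its guide strand (points, with the SE of the limma fit as whiskers). With all probes let-7a-1-3p and let-7d-3p stand at -0.34 at 5 mg/kg bw, with the longest probe at -0.15 and -0.10, beside guides at -0.12 and -0.066.

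Neighbours in the clusters and seed relatives were read in the same way. In the cluster of let-7a-1 and let-7d, the guide let-7f-5p differed from control by -0.069 at 1 mg/kg bw (SE 0.073, limma adjusted p = 0.86) and by -0.023 at 5 mg/kg bw (SE 0.073, limma adjusted p = 0.89). let-7f-1-3p, the passenger strand between them, was detected on 4 arrays (replicate 1 in control, 1 and 3 at the lower dose, 3 at the higher dose) and was not tested. Of the 10 entries of miR-99a, miR-99b, miR-100, miR-125a and miR-125b-1, which share transcripts or clusters with other let-7 genes, 8 were tested and 0 passed at either dose, with 0 at an unadjusted p under 0.05. Their differences ran from -0.19 to 0.051 at 1 mg/kg bw and from -0.21 to 0.087 at 5 mg/kg bw. The lowest was miR-99a-3p, a passenger strand from the let-7c-1 cluster, at -0.21 (SE 0.091, limma adjusted p = 0.51). let-7k, an entry with a let-7-like seed that has no arm in its name, was detected on all 9 arrays and differed by -0.15 at 1 mg/kg bw (SE 0.087) and by -0.088 at 5 mg/kg bw (SE 0.087).

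Over the 9 arrays the levels of the members did not follow one pattern. Pearson's r was 0.65 between let-7a-1-3p and let-7d-3p, 0.48 between let-7a-1-3p and let-7c-1-3p, and -0.27 between let-7d-3p and let-7e-3p. Each member against its own guide gave r = 0.65 for let-7a-1-3p, 0.60 for let-7d-3p, 0.19 for let-7c-1-3p and 0.18 for let-7e-3p. These values are over 9 arrays that share the scaling and include the difference between the groups, and they are descriptions without a test. The tested miRNAs most alike in level were miR-1904 (r = 0.89), miR-3962 (r = 0.87) and miR-466i-5p (r = 0.81) for let-7a-1-3p, and miR-92b-3p (r = 0.85), miR-191-3p (r = 0.79) and miR-532-3p (r = 0.78) for let-7d-3p. For let-7c-1-3p they were miR-219-5p (r = 0.71), miR-1196-5p (r = 0.66) and miR-140-5p (r = 0.65), and for let-7e-3p miR-450a-2-3p (r = 0.90), miR-345-5p (r = 0.88) and miR-1231-5p (r = 0.86). No other let-7 entry was among them. The spread between replicates was 0.12, 0.081, 0.20 and 0.084 on the log2 scale for let-7a-1-3p, let-7c-1-3p, let-7d-3p and let-7e-3p, against a median of 0.14 over all tested miRNAs.

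The scanner files also hold a total signal per miRNA, and for these members it was almost wholly that of another entry. For let-7d-3p the file total was 7700 to 12714 units over the 9 arrays, of which its own probes over 3 times their error gave 2.11 to 5.04 units. The rest equalled the total of the guide let-7c-5p on the same array to within 0.00031% of the total. In the same way the total of let-7c-1-3p was that of let-7b-5p plus 1.89 to 3.33 units, and that of let-7e-3p was that of let-7d-5p plus 5.34 to 6.15 units. The total of let-7a-1-3p, 534 to 1215 units, was that of a bright corner control feature plus 3.12 to 4.02 units. Between 24.1% and 26.4% of detected miRNAs per array had a file total more than 1.5 times the sum of their own positive probe signals. With the file totals the difference of let-7d-3p at 5 mg/kg bw was -0.045, and its strand ratio would set let-7c-5p against let-7d-5p. The probe signals were used here for this reason.

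**Figure D5:**
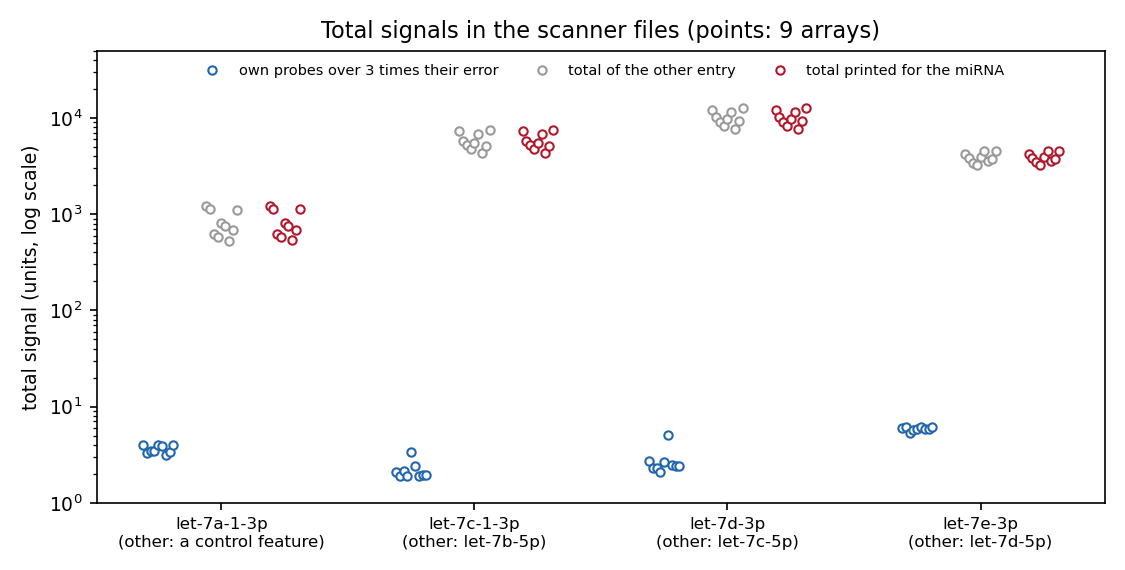
Total signals of the scanner files on a log axis, in units, for each member on the 9 arrays: the member's own probes over 3 times their error, the total of the other entry named under it, and the total printed for the miRNA. The printed totals (534 to 12714 units) fall on those of the other entry, and the own probes give 1.89 to 6.15 units.

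The deposited table of log2 values holds values whose scaling is not given, and they varied more for the dim members. In it let-7a-1-3p stood at -0.23, -1.55 and 0.20 in control, at -0.85, -0.47 and -1.08 at 1 mg/kg bw, and at -1.51, -1.48 and -0.44 at 5 mg/kg bw. The groups overlapped there, and the SD in control, 0.92, was over the difference of -0.61 at 5 mg/kg bw. let-7d-3p stood at -1.48, -1.81 and -1.04 in control, at -1.73, -2.03 and 0.30 at 1 mg/kg bw, and at -1.79, -2.22 and -1.54 at 5 mg/kg bw, which also overlap. The array with 0.30 is the one on which a second probe passed 3 times its error, and on the other 8 arrays 1 probe did. let-7c-1-3p also had a second such probe on 1 mg/kg bw replicate 2, but stood there at -1.73, within its range of -2.43 to -1.06. let-7a-1-3p had 1 such probe on every array and still varied as given above. The part of the number of probes in these values was not tested. For let-7d-3p the mean difference at 1 mg/kg bw was 0.29 in the deposited table and -0.22 from the summed probes, with limma adjusted p = 0.69 in the latter. let-7e-3p, with 2 such probes on every array, varied between 0.75 and 0.99 over all 9 arrays.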

How the data were processed

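Hippocampal RNA was measured on 9 Agilent mouse miRNA arrays, 3 per group. The authors scanned and extracted the arrays with Feature Extraction 10.7 (GeneSpring 11.0 is named for the analysis). The deposited intensity values are background-subtracted spot signals, probe and miRNA totals and detection calls, without normalization between arrays. The deposited log2 table holds the authors' processed values of the same arrays, whose normalization is not given in the sources used here. The members, lists and tests were chosen with earlier results of these data known.

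Outlier spots were left out, spots averaged per probe, probes summed per miRNA, each array divided by its 75th percentile, values under the lowest detected signal raised to it, and log2 taken. In the alternatives with a single probe, the floor of that probe was 0.1 units instead. limma 3.58.1 in R 4.3.3 was fitted with the 3 groups, with Benjamini-Hochberg adjustment over 424 miRNAs or 87 arm pairs, paired by name without the locus number. Of these steps only the limma fit was checked on simulated log2 values. The planted changes were larger than the differences of the members from summed probes. No spot had the same signal on 2 arrays. Named miRNAs were the members, other let-7 and miR-98 entries, their cluster neighbours, and for each member the 3 with the highest correlation. Alternatives covered signal, background, probe summary, scaling, floor, filter, variance, weights, blocks and each array left out. The restriction to probes over 3 times their error and the subtraction of negative control spots were chosen after seeing the data. Groups of 3 arrays are too small for a check of single outlying samples.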

Additional observations from a re-analysis of the deposited data

How the results depend on the processing

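No passenger strand was called at 1 mg/kg bw, in level or strand ratio, and no guide strand at either dose, under any of the alternatives run (28 for levels, 26 for ratios). At 5 mg/kg bw, the contrast that chose them, the level and the ratio of let-7a-1-3p and let-7d-3p stayed below control under every alternative. The alternatives reuse the same arrays, and the file totals are almost wholly those of another entry, so nothing is read from the constant sign. The size of the differences depended on the treatment of dim signal. In the order let-7a-1-3p level, let-7d-3p level, let-7a-1-3p ratio and let-7d-3p ratio, the differences of -0.34, -0.34, -0.22 and -0.27 became -0.11, -0.10, -0.0048 and -0.053 with normexp background correction, -0.56, -0.63, -0.43 and -0.58 with the mean of log2 over probes, and -0.15, -0.10, -0.029 and -0.036 with the longest probe alone or only the probes over 3 times their error. Single shorter probes gave -0.77, -0.70 and -1.999 for the level of let-7a-1-3p (21, 20 and 19 bases) and -0.65, -0.58 and -1.88 for its ratio, and -1.10 and -2.22 for the level of let-7d-3p (16 and 15 bases) and -1.03 and -2.16 for its ratio. The 17-base probe of let-7d-3p had means of 7.16 scaled units in control and 5.59 at 5 mg/kg bw. Single probes were floored at 0.1 units. The 19-base probe of let-7a-1-3p reached that floor on 5 mg/kg bw replicate 1. For let-7e-3p the 15-base probe did so on control replicate 1. Its 14-base probe did so on all control arrays and on 5 mg/kg bw replicates 1 and 3. For let-7d-3p the 16-base probe did so on 1 mg/kg bw replicate 2 and the 15-base probe on 1 mg/kg bw replicate 1. The sizes of the differences of these probes that use those arrays therefore depend on the floor. The file totals gave -0.045 for the level of let-7d-3p and -0.34 for the ratio of let-7a-1-3p, and the deposited log2 table -0.61 and -0.65 for the level and ratio of let-7a-1-3p. Blocking on the row number gave -0.45 for the ratio of let-7d-3p. That block put the slide 2 array with row 1 of slide 1, so it does not separate dose from position. Leaving out 1 array gave -0.43 to -0.27, -0.43 to -0.26, -0.29 to -0.15 and -0.38 to -0.17. At the same dose the level of let-7c-1-3p (-0.095) turned to 0.019 without scaling, 0.094 with the negative control mean subtracted, and 0.058 and 0.026 with its 20-base and 19-base probes. That of let-7e-3p (-0.036) turned to 0.090 with the file totals, 0.078 without scaling, 0.0030 with quantile normalization, 0.070 with the negative control mean subtracted, 0.010 with rows blocked, and 1.53 and 1.09 with its 15-base and 14-base probes. The ratio of let-7c-1-3p (0.11) turned to -0.047 with the file totals, -0.49 in the deposited table, -0.43 with its 18-base probe, -0.017 without control replicate 1 and -0.019 without 5 mg/kg bw replicate 1. That of let-7e-3p (0.033) turned to -0.064 with quantile normalization, -0.028 with normexp, -0.015 with the mean of log2, -0.15 in the deposited table, -0.0047 with the probes over 3 times their error, -0.056 with its 16-base probe, -0.013 without control replicate 1 and -0.0087 without 5 mg/kg bw replicate 2. The cause of these shifts was not tested beyond the probes given above.

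At 1 mg/kg bw, where no member was called, the sign of a difference turned as follows. The level of let-7c-1-3p turned to -0.065 with the file totals, -0.061 with normexp, -0.32 in the deposited table, -0.12 with its longest probe or the probes over 3 times their error, -0.71 with its 18-base probe, -0.0086 with array quality weights and -0.00075 without control replicate 1. The level of let-7d-3p turned to 0.29 in the deposited table and 0.034 with its longest probe. That of let-7e-3p turned to 0.050 with the file totals, 0.070 without scaling, 0.0066 with the row as a block, 4.2e-05 without 1 mg/kg bw replicate 2, and 1.03 and 1.76 with its 15-base and 14-base probes. The ratio of let-7a-1-3p turned to 0.037 with normexp and 0.12 with its longest probe. That of let-7c-1-3p turned to -0.015 with the file totals, -0.32 in the deposited table and -0.53 with its 18-base probe. That of let-7d-3p turned to 0.32 in the deposited table, 0.12 with its longest probe and 0.047 with its 17-base probe. That of let-7e-3p turned to -0.022 with quantile normalization, -0.012 with the mean of log2 and -0.12 in the deposited table. Without scaling the median of all tested miRNAs moved by 0.11 at both doses.

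The replicate numbers were not taken as pairs, since deviations of same-numbered arrays from their group means correlated between -0.65 and 0.74 across miRNAs. With the replicate block let-7a-1-3p differed by -0.34 (SE 0.11) at 5 mg/kg bw and by -0.22 at 1 mg/kg bw (limma adjusted p = 0.56), and the block changed no call. The low signals of the members limit what can be read from them.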
